A study of Mus musculus with 4 samples.

Results

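A group of 10 genes of the immune checkpoint and costimulatory ligands were followed through every cell class of 4 mouse pancreatic tumours: Cd274, Pdcd1lg2, Cd80, Cd86, Pvr, Nectin2, Lgals9, Cd47, Vsir and Cd276. They were chosen by gene symbol, and all 10 were found among the 32285 genes counted. The tumours came from KPC46, a pancreatic ductal adenocarcinoma organoid line, in B6/129 F1J mice. Of the 4 mice, 2 received the vehicle Cremophor and 2 received TAK-981, an inhibitor of the enzyme that starts SUMO conjugation, and each of the 4 single-cell libraries came from 1 mouse. All 4 tumours carried the same line, so the tumour cells stand for 1 organoid line only, and the labels give neither dose nor time of treatment. The comparison asks how blocking SUMOylation changes the tumour and its immune surroundings.

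Quality limits left 4408 cells in vehicle 1, 4130 in vehicle 2, 2214 in TAK-981 1 and 3110 in TAK-981 2, with median depths of 2269, 4148, 5024.5 and 12831 UMIs (unique molecular identifiers, 1 per captured RNA molecule). Depth therefore differed between the groups. Between 0 and 6 cell barcodes were shared by any pair of libraries. Cells were clustered without the 10 ligands, and clusters were named by marker genes. The comparison covered 7 classes: epithelial, macrophage or monocyte, neutrophil, dendritic, fibroblast, T or NK and endothelial. The epithelial class held Krt8 in 93.7%, Krt18 in 92.1%, Krt19 in 82.5% and Tspan8 in 75.4% of cells. Cdh1 was seen in 41.6%, Elf3 in 25.3% and Krt7 in 8.60%. Epcam was in 0.992%, Cldn7 in 0.725% and Cldn4 in 0.477%, so the class name rests on a part of its marker list. Its clusters were unevenly split: a Prl-led cluster had 525 and 1129 vehicle cells but 48 and 171 TAK-981 cells, and an Hspb1-led cluster had 105 and 34 against 214 and 1061. The dendritic class had 229 cells in vehicle 1 and 27 to 32 in each other library, and parts of it were led by mast cell, basophil or complement C1q genes. There were 758 and 459 neutrophils from vehicle mice against 44 and 103 from treated mice. Values are given throughout in the order vehicle 1, vehicle 2, TAK-981 1 and TAK-981 2, unless said otherwise.

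Checkpoint ligands sit on the surface of tumour, myeloid and stromal cells and bind receptors on T cells, natural killer cells or phagocytes. Some brake the receiving cell, some activate it, and several do either depending on which receptor they meet. In pancreatic cancer, where T cells are few and myeloid cells many, the ligands on myeloid cells are studied as much as those on the tumour cells. Most of them are regulated by interferon and inflammatory signals, and part of that regulation acts on protein, which RNA counts do not show.

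The PD-1 ligands had their highest levels in myeloid classes. Cd274 encodes PD-L1, and Pdcd1lg2 encodes PD-L2, and both bind PD-1 on T cells. They are neighbours on mouse chromosome 19 with 22.8 kb between them: Cd274 at chr19:29367455-29388095 and Pdcd1lg2 at chr19:29410919-29471161, both on the plus strand (GRCm38). Cd274 was highest in neutrophils, at 636, 218, 127 and 534 CPM. CPM relates the UMIs of a gene to all UMIs summed over a class in a library, and is scaled here by TMM over all 28 library-by-class sums. Dendritic cells followed at 129, 43.2, 174 and 270 CPM, and macrophages at 54.1, 22.4, 49.4 and 90.5 CPM. Epithelial cells were lowest by the mean of the libraries, at 1.00, 1.06, 3.87 and 2.85 CPM. The neutrophil and macrophage libraries did not overlap, whereas neutrophils were above dendritic cells in 3 of 4 libraries. An exact two-sided sign-flip test over 4 libraries cannot give a p below 0.125, so no difference between classes could pass 0.05 here or below.

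Pdcd1lg2 was highest in dendritic cells, at 51.2, 86.5, 38.2 and 88.4 CPM. T or NK cells had 29.0, 35.6, 11.7 and 45.1 CPM, below dendritic cells in each library. Neutrophils had 69.1, 42.3, 0 and 58.6 CPM. Fibroblasts and endothelial cells had no UMI of Pdcd1lg2 in any library, and epithelial cells had at most 0.423 CPM.

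The bases before the starts of these 2 genes and of Lgals9 are shown because, as given further on, Lgals9 was high in macrophages led by interferon genes, and because interferon is the best known inducer of Cd274. The stretches run from 150 to 31 bases before each RefSeq start on GRCm38.p6, read 5′ to 3′ on the gene's strand, with motif matches in capitals. They lie at chr19:29367288-29367407 (plus strand), chr19:29410769-29410888 (plus strand) and chr11:78984955-78985074 (minus strand).
Cd274: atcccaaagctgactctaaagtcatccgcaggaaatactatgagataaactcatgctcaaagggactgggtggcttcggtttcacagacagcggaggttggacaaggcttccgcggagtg
Pdcd1lg2: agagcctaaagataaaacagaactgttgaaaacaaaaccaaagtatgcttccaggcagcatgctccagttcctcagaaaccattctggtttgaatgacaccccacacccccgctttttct
Lgals9: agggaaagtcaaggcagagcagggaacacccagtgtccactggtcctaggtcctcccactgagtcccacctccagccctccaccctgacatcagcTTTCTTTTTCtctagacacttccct
Windows of 250 bases were searched on both strands for 4 motifs, and 8 of the 10 ligands had an entry, all but Cd86 and Pvr. The motifs were the interferon-stimulated response element (GAAA, any 2 bases, GAAA), found in 2.98% of all 32851 windows of that length, the STAT element TTCNNNGAA (7.02%), an NF-kB element of GGG, any 3 bases and TTCC (4.65%) and the AP-1 element TGANTCA (6.75%). Lgals9 held the interferon element as TTTCTTTTTC on the reverse strand, 55 to 46 bases before its start, and Cd80 held the AP-1 element as TGATTCA, 42 to 36 bases before its start. No other match lay in the windows of the 8 ligands, and for Cd274 this says only that these letters are not in its window.

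The CD28 and CTLA-4 ligands were also highest in myeloid cells. Cd80 and Cd86 encode B7-1 and B7-2, which activate T cells through CD28 and are captured by CTLA-4. Cd80 was highest in neutrophils, at 507, 243, 173 and 124 CPM, ahead of dendritic cells at 145, 54.0, 101 and 261 and macrophages at 149, 39.6, 31.4 and 76.7. Neutrophils were above dendritic cells in 3 of 4 libraries, so their order did not hold in TAK-981 2. Cd86 gave a different order. Dendritic cells had 165, 238, 229 and 200 CPM and macrophages 156, 109, 135 and 137, with no overlap between these classes, and neutrophils had 14.4, 21.1, 46.1 and 26.0. Epithelial cells had at most 0.847 CPM of Cd80 and at most 3.27 CPM of Cd86, the latter in TAK-981 1.

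Pvr and Nectin2 encode CD155 and CD112, adhesion molecules that activate lymphocytes through CD226 and restrain them through TIGIT, CD96 or PVRIG. Pvr was spread over all classes. Dendritic cells had 47.9, 75.7, 45.2 and 69.8 CPM, macrophages 39.1, 42.2, 29.1 and 36.4, and epithelial cells 29.6, 21.2, 19.5 and 42.0. Its 7 classes formed 6 neighbouring steps in order, and the ranges of libraries overlapped at each step. Nectin2 instead followed non-immune cells. Endothelial cells had 95.0, 118, 46.1 and 53.9 CPM, fibroblasts 45.7, 62.1, 71.7 and 75.8, and epithelial cells 14.2, 16.0, 31.1 and 23.5, below fibroblasts without overlap. T or NK cells had Nectin2 UMIs in TAK-981 1 only, at 2.35 CPM.

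Cd276, which encodes B7-H3, a B7 family member of cancer and stromal cells whose receptor is unsettled, had the same outline. Endothelial cells had 102, 77.1, 27.3 and 47.9 CPM, fibroblasts 59.3, 37.8, 35.1 and 32.5, epithelial cells 19.0, 15.2, 10.9 and 12.7, and macrophages 1.86 to 5.98. Fibroblasts, epithelial cells and macrophages did not overlap with each other. Vsir encodes VISTA, an inhibitory molecule of myeloid and T cells. It was at 360, 289, 173 and 189 CPM in neutrophils and 159, 206, 181 and 179 in macrophages, against 10.8 to 20.8 in dendritic cells and 0.400, 0.734, 4.78 and 1.14 in epithelial cells. Dendritic cells thus had high Cd86 and low Vsir, and macrophages had both.

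Lgals9 encodes galectin-9, a secreted lectin that binds TIM-3 (Havcr2). It was at 219, 204, 166 and 240 CPM in endothelial cells, 147, 108, 111 and 156 in macrophages, 80.5, 96.8, 110 and 59.8 in epithelial cells and lowest in dendritic cells at 54.5, 21.6, 41.7 and 18.6. Cd47 encodes the "do not eat me" signal that binds SIRPα on phagocytes. Every class carried it in every library, between 211 and 521 CPM. Dendritic cells had 498, 486, 365 and 521 CPM and macrophages 237, 211, 255 and 285. In epithelial cells the groups stood apart, at 234 and 263 CPM in vehicle mice against 511 and 463 in treated mice.

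**Figure D1:**
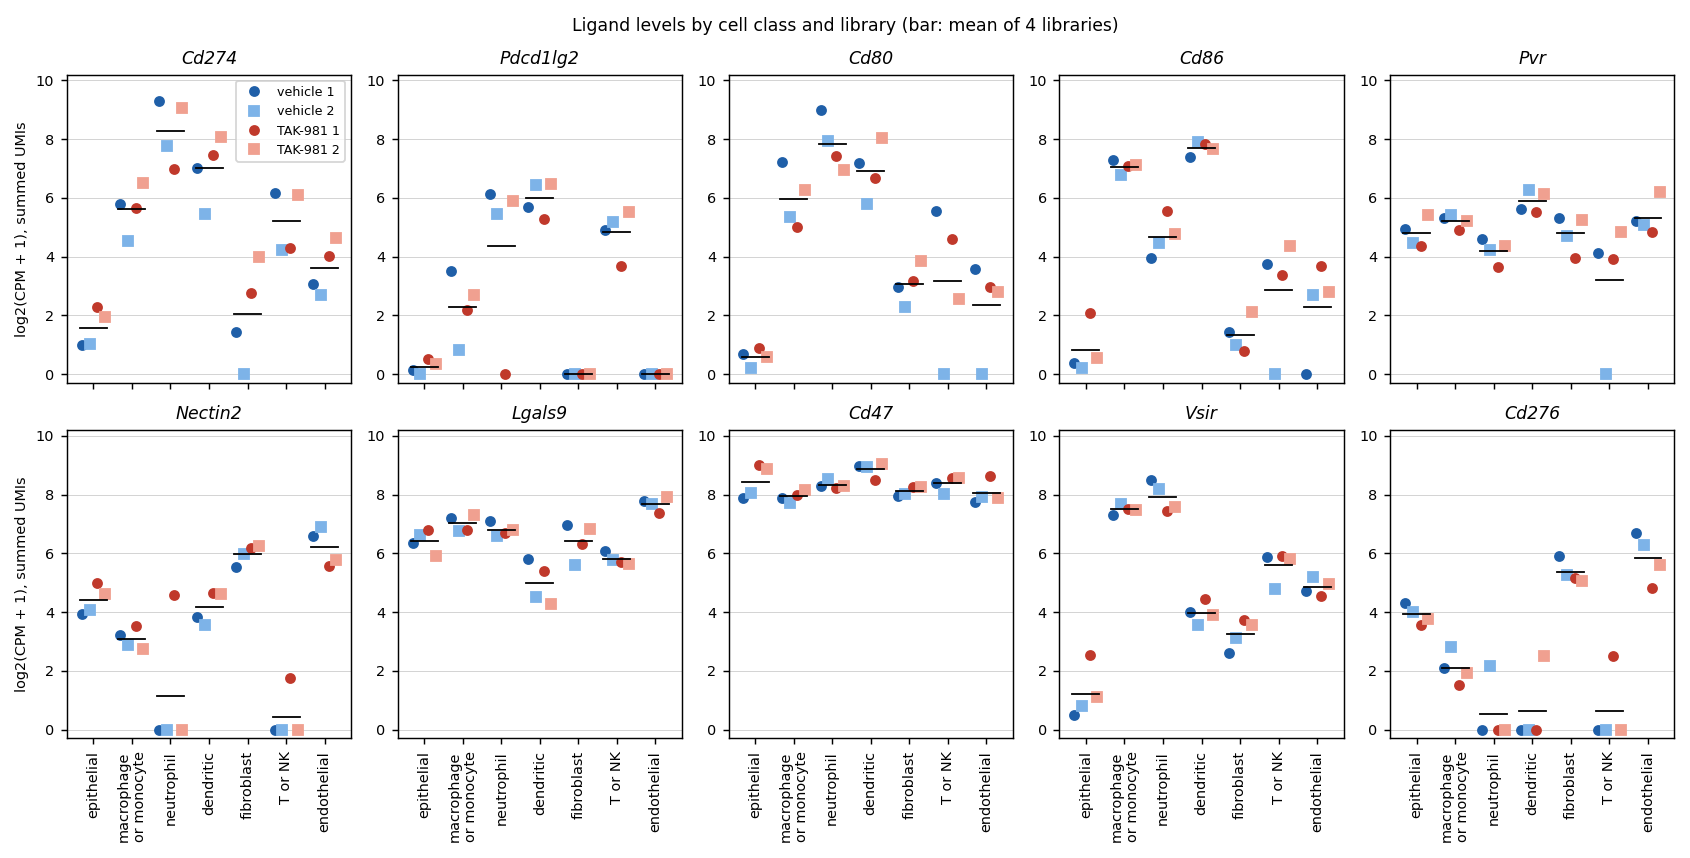
Level of each ligand, log2(CPM + 1) of UMIs summed per library and class, in 7 cell classes; each point is 1 library (blue vehicle, red TAK-981) and each bar the mean of the 4. Cd274, Cd80 and Vsir are highest in neutrophils, Pdcd1lg2, Cd86 and Pvr in dendritic cells, Nectin2, Lgals9 and Cd276 in endothelial cells, and Cd47 is between 211 and 521 CPM in all 7.

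The class that held most of a ligand's UMIs was often not the class with its highest level. Neutrophils held 36.8, 41.6, 2.58 and 9.14% of Cd274 UMIs, and macrophages 40.8, 40.3, 62.4 and 60.4%. These shares reflect how many cells of each class were captured as well as RNA per cell. Epithelial cells, which had the lowest Cd274 level, held 1.66, 8.72, 15.0 and 15.6% of its UMIs. Macrophages held 80.2 to 89.6% of Cd86 UMIs and 80.1 to 87.4% of Vsir UMIs in every library. Epithelial cells held 52.1, 57.8, 77.7 and 89.3% of Cd47 UMIs, and between 49.0 and 86.8% of Nectin2 UMIs. Clusters left unnamed held 22.5% of Cd47 UMIs in vehicle 2 and 0.120 to 3.88% in the other libraries.

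**Figure D2:**
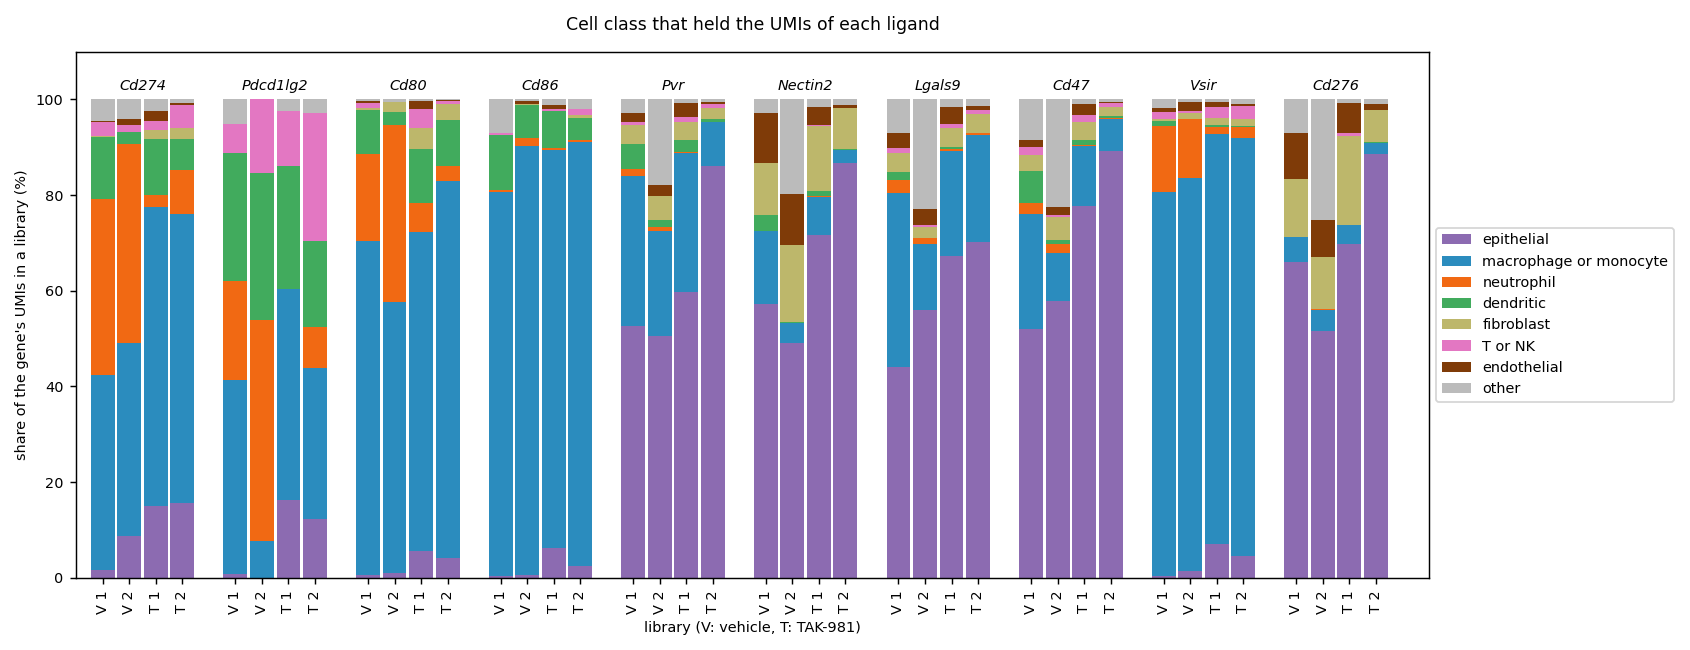
Percent of each ligand's UMIs that lay in each cell class, 1 bar per library (V vehicle, T TAK-981); "other" pools B, plasma, acinar, erythroid and unnamed cells. Neutrophils (orange) hold 36.8 and 41.6% of Cd274 UMIs in vehicle and 2.58 and 9.14% under TAK-981, and epithelial cells (purple) hold most Cd47, Nectin2, Pvr and Cd276.

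Within the myeloid classes the PD-1 ligands differed between named states. Neutrophil subclusters of 253, 131, 290, 123 and 50 cells stayed unnamed, beside 289 and 33 cells of 1 named state and 173 and 22 of the other. Levels are given below for the unnamed one of 123 cells only. Values here are CPM without TMM scaling, since states had few cells. Neutrophils of a state marked by Ccl3, a chemokine gene, and Hcar2 had 768 and 630 CPM of Cd274 in vehicle (204 and 74 cells) and 657 CPM in TAK-981 2 (42 cells). A state marked by Retnlg and by Cxcr2, a chemokine receptor gene, had 50.2 and 71.4 CPM in vehicle (118 and 76 cells) and only 1 cell under TAK-981. Pdcd1lg2 followed the same split, at 125 and 148 CPM in the first state in vehicle and no UMI in the second. Cd80 ran the other way, at 171 and 92.6 CPM in the first and 237 and 214 CPM in the second. Vsir did so as well, at 125 and 92.6 CPM in the first and 237 and 250 CPM in the second. The main subclusters of these states had median depths of 677 and 684 UMIs per cell, so the lower CPM rest on few UMIs. In vehicle 1 the second state also held 22 cells of a subcluster with a median of 2774 UMIs, which had 0 cells in vehicle 2. Both states were compared in vehicle mice only, and 30 of the 42 cells from TAK-981 2 lay in a subcluster with 3 cells from other libraries. A subcluster left unnamed, led by interferon genes such as Ifit1 and also by acinar genes such as Ctrb1, had 608, 120 and 341 CPM of Cd274 in vehicle 1 (47 cells), TAK-981 1 (32 cells) and TAK-981 2 (41 cells), and it was singled out after its values were seen.

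Among macrophages, a cluster led by interferon genes such as Rsad2 and Ifit1 had 468 CPM of Lgals9 in vehicle 1 (20 cells), 404 in TAK-981 1 (20 cells) and 472 in TAK-981 2 (91 cells), where the C1q cluster had 152, 110 and 143 CPM. Its Cd274 was 224, 75.4 and 203 CPM in these 3 libraries, against 44.7, 55.3 and 71.0 in the C1q cluster, and its Cd47 was 549, 637 and 634 against 193, 257 and 247. Vehicle 2 held 1 cell of the interferon cluster, so the groups could not be compared in it. The Arg1 cluster had 96.1, 48.9, 121 and 128 CPM of Cd274, above the C1q cluster in each library. Mature dendritic cells, marked by Ccr7 and Fscn1, had 266 CPM of Cd274, 214 of Cd80, 249 of Cd86 and 81.0 of Pvr in vehicle 1 (58 cells), where cDC1 had 63.3, 79.1, 87.0 and 31.6 and cDC2 67.0, 93.7, 127 and 20.1. The mature cells of TAK-981 1 and TAK-981 2 (8 and 10 cells) had 422 and 528 CPM of Cd274. In vehicle 1, 15 of the 22 dendritic cells with a Pdcd1lg2 UMI also had one of Cd274, where 56 of all 229 had one. In vehicle 2 it was 1 of 6, where 4 of 30 had one. In TAK-981 1 and TAK-981 2 it was 7 of 7 and 12 of 14, where 15 of 32 and 19 of 27 had one. Dendritic cells of unlike states and depths were pooled in these counts. Plasmacytoid cells, 23, 5, 0 and 2 by library, had no Cd274 UMI, and they had 1106 CPM of Cd47 in vehicle 1.

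**Figure D3:**
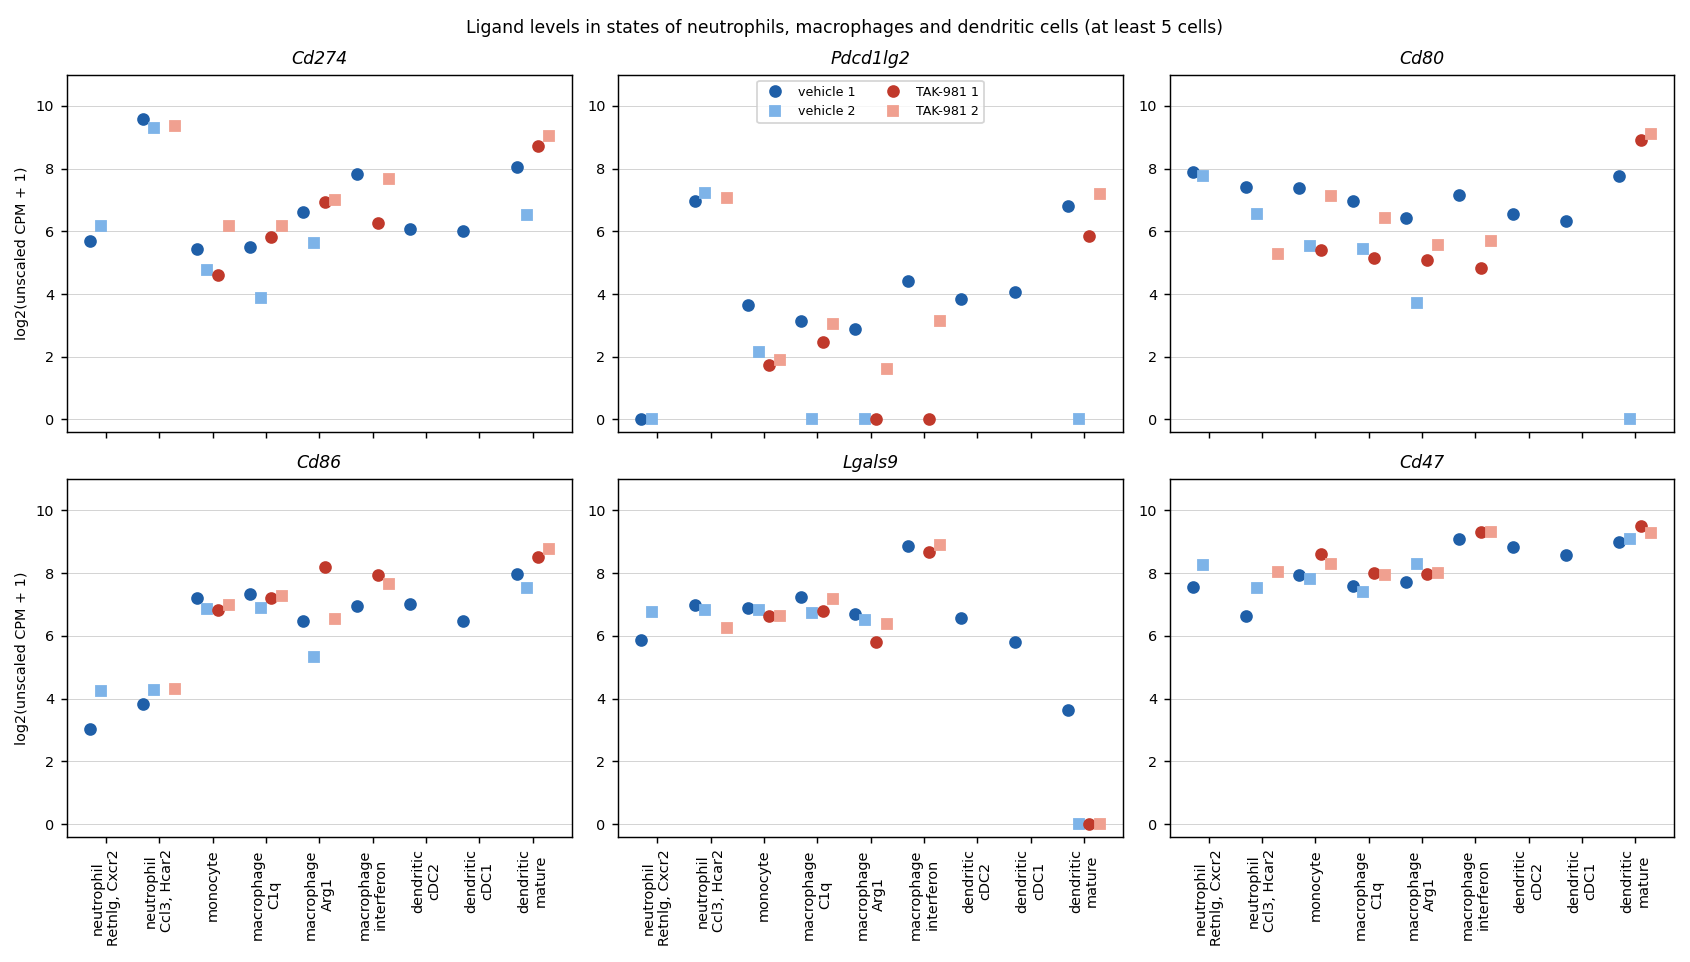
Level of 6 ligands, log2(unscaled CPM + 1), in states of neutrophils, macrophages and dendritic cells; each point is 1 library with at least 5 cells of the state. Cd274 and Pdcd1lg2 are higher in the Ccl3 and Hcar2 neutrophils than in the Retnlg and Cxcr2 neutrophils, and Lgals9 is 404 to 472 CPM in the interferon macrophages.

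More cells show a ligand at greater depth, so shares of cells were compared after thinning each cell to 500 UMIs. Intervals are exact (Clopper-Pearson) at 95%, and they and the floors given for 0 cover counting error only. At that depth Cd274 was seen in 15.2% (12.7 to 17.9), 8.50% (6.11 to 11.4), 9.09% (2.53 to 21.7) and 18.4% (11.5 to 27.3) of neutrophils. Unthinned shares were 18.9, 10.0, 15.9 and 38.8%, at median depths of 665.5, 623, 1585.5 and 1439 UMIs. Fibroblasts, the class with the lowest share, had no thinned cell with Cd274, which allows a share of up to 1.30 to 3.95%, at median depths of 4154 to 16092.5 UMIs. Epithelial cells had 0, 0.0699, 0.205 and 0.208% of cells with Cd274, against 1.09, 0.839, 4.81 and 5.15% unthinned, so the thinned values lie at 0 to 4 cells per library and give no order.

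Cd86 was seen in 6.36, 5.64, 5.63 and 8.05% of thinned macrophages and in no thinned epithelial cell, which allows up to 0.156 to 0.328%. Vsir was seen in 7.50, 11.6, 6.02 and 8.79% of thinned macrophages and in 0 to 0.307% of epithelial cells. Cd80 was seen in 13.7, 10.7, 15.9 and 3.88% of thinned neutrophils and in no thinned epithelial cell. Nectin2 was seen in 0.328, 0.769, 1.74 and 1.04% of thinned epithelial cells, and in no thinned T or NK cell, a class that should lack it, which allows up to 1.90 to 4.48%. The epithelial shares of Nectin2 lie at or under these limits, so a difference from T or NK cells was not detectable at this depth. The same held for Cd276, at 0.547, 0.699, 0.614 and 0.572% of thinned epithelial cells. Pvr was seen in 0.656, 0.349, 0.819 and 1.77% of thinned epithelial cells and 1.27, 0, 0 and 1.37% of T or NK cells, and the 2 classes were not detectably different at this depth. Cd47 was seen in 8.32% (6.61 to 10.3) and 9.29% (7.84 to 10.9) of thinned epithelial cells in vehicle and 20.4% (17.88 to 23.03) and 18.2% (16.51 to 20.01) under TAK-981. Unthinned, these shares were 71.9, 71.8, 69.3 and 90.8%, where the TAK-981 1 share lies below both vehicle shares.

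The question of what TAK-981 did to the ligands was asked per class on summed UMIs with edgeR's quasi-likelihood test, with 2 mice against 2. No ligand passed an adjusted p of 0.05 in any class. The counts were 0 of 7 tested in epithelial cells, where 2.66% of all genes tested passed, 0 of 10 in macrophages (0% of genes), 0 of 6 in neutrophils (0.16%), 0 of 7 in dendritic cells (4.1%), 0 of 7 in fibroblasts (0.98%), 0 of 5 in T or NK cells (0.0238%) and 0 of 6 in endothelial cells (1.82%). In the sum of all cells it was 0 of 10 (0%). At an unadjusted p below 0.05 there were 5 ligands in epithelial cells, beside 21% of all genes tested, 1 in dendritic cells (14.2% of genes), 2 in endothelial cells (16.2%) and 1 in all cells (14.5%). There were 0 in macrophages (13.4%), neutrophils (12.1%), fibroblasts (9.93%) and T or NK cells (12.7%). DESeq2 called 1 ligand, Cd47 in epithelial cells, and 0 in the other classes and in all cells. The other ligands of a class had too few UMIs to be tested, and a ligand that was tested may have been so through the group where it was higher. In simulated counts of the epithelial libraries the test found 24.5% of genes changed 2-fold and 95.9% of those changed 4-fold. The simulation gave every gene the same dispersion (spread between mice) of 0.05. It changed only genes with more than 5 expected UMIs in each library. These rates are therefore not the power for the ligands in the real libraries.

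In epithelial cells the vehicle and TAK-981 libraries lay apart without overlap for 5 of the 7 tested ligands, 4 higher and 1 lower under treatment, beside 27% and 26.9% of all genes. CPM in this and the next paragraphs is scaled within the class. Cd47 had 215 and 245 CPM in vehicle mice against 416 and 386 in treated mice, a log2 ratio of 0.80 ± 0.22 (SE, adjusted p = 0.109), with the TAK-981 libraries above both vehicle ones. DESeq2 gave an adjusted p of 0.00831, and edgeR without the filter on low counts one of 0.0370, so this call depends on the method. The median log2 ratio over all 12503 genes tested was 0.01. The tested ligands went both ways, with Lgals9 (-0.23) and Cd276 (-0.69) below 0. Vsir had 4 and 9 UMIs in vehicle against 79 and 56 under TAK-981, so it may have been tested only through the treated libraries.

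The Cd47 difference was also present inside single tumour clusters, given as unscaled CPM. In the Prl-led cluster it was 171 and 212 CPM in vehicle mice against 418 and 363 in treated mice, in the Hspb1-led cluster 230 and 268 against 487 and 431, and in the Phgdh-led cluster 117 and 90.8 against 284 and 209. The Phgdh-led cluster scored only 0.02 on the epithelial markers, against 0.447 for the Prl-led and 0.604 for the Hspb1-led one. Its cells had a median of 2057 UMIs. The groups did not overlap in any of these 3 clusters, the named tumour clusters with at least 20 cells in every library. These clusters and the macrophage ones below share the same mice. The share of all genes without overlap was not computed by cluster. In the whole class 27% of epithelial and 23.4% of macrophage genes were higher without overlap. In the unnamed cluster led by Prl the Cd47 values were 154 and 184 against 196 and 234 CPM. They rest on 171, 1215, 13 and 53 UMIs from 125, 720, 25 and 57 cells. The macrophage C1q cluster had 193 and 168 CPM in vehicle mice against 257 and 247 in treated mice, and the monocyte cluster 244 and 225 against 393 and 314, while the Arg1 cluster overlapped and so did the shallow Aif1-led cluster, at 75.4, 208, 166 and 308 CPM.

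**Figure D4:**
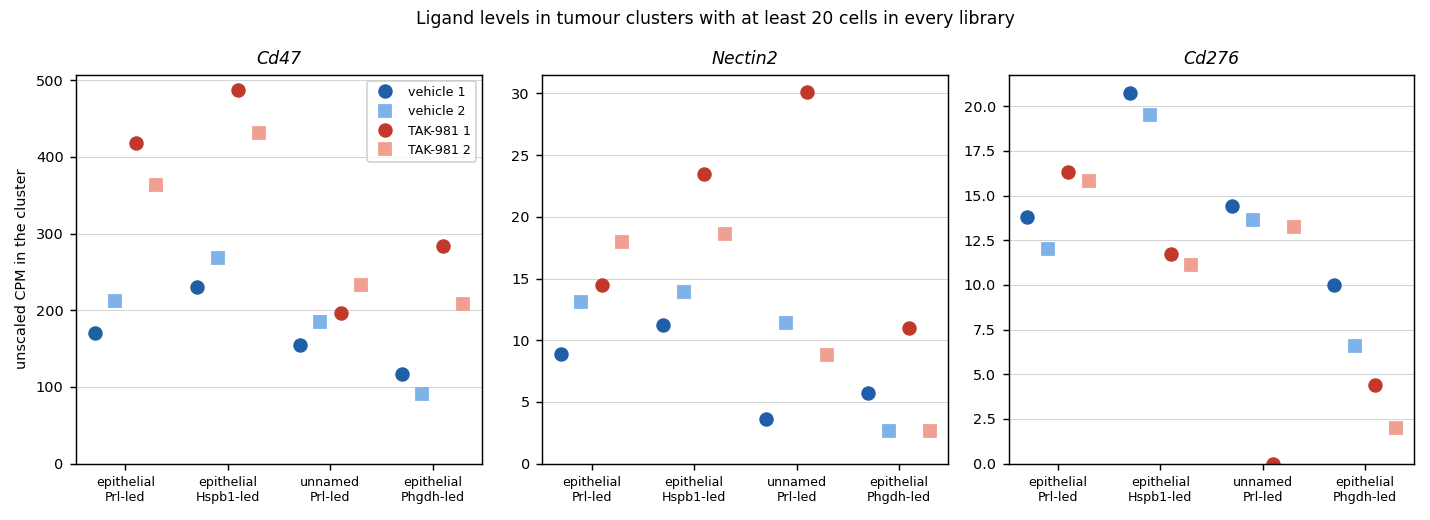
Unscaled CPM of Cd47, Nectin2 and Cd276 in 3 epithelial clusters and 1 unnamed cluster with at least 20 cells in every library, labelled by their leading gene. Each point is 1 library. Cd47 is higher under TAK-981 in all 4 clusters, which share the same mice. In the unnamed cluster its TAK-981 1 value rests on 13 UMIs. Cd276 is higher under TAK-981 in the epithelial Prl-led cluster and lower in the Hspb1-led and Phgdh-led ones.

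In epithelial cells Nectin2 had 13.04 and 14.9 CPM in vehicle mice against 25.3 and 19.6 CPM in treated mice (log2 0.68 ± 0.25, edgeR adjusted p = 0.194). Cd276 had 17.4 and 14.1 CPM in vehicle mice against 8.86 and 10.6 in treated mice (log2 -0.69 ± 0.26, edgeR adjusted p = 0.198). By cluster, Cd276 was 13.8 and 12.02 unscaled CPM in vehicle against 16.3 and 15.8 under TAK-981 in the Prl-led cluster, but 20.7 and 19.5 against 11.7 and 11.1 in the Hspb1-led one, so its direction in the whole class was not that of each cluster. Pvr, at 27.2, 19.8, 15.8 and 35.0 CPM, and Lgals9, at 73.9, 90.2, 89.9 and 49.8 CPM, overlapped between the groups.

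Cd274 was very low in epithelial cells and did not pass the test: 0.918 and 0.988 CPM in vehicle (10 and 13 UMIs) and 3.15 and 2.38 under TAK-981 (64 and 140 UMIs), a log2 ratio of 1.52 ± 0.49 (edgeR adjusted p = 0.144). Vsir had 0.367, 0.684, 3.89 and 0.951 CPM (log2 2.15 ± 0.84, edgeR adjusted p = 0.214), and its highest value was in TAK-981 1. In the epithelial class 13 to 14 of 14 macrophage markers had UMIs (Ly6c2 was at 0 in vehicle 2), and they summed to 167, 116, 1073 and 248 CPM. Neutrophil markers, 11 to 12 of 12 with UMIs, summed to 21.6, 27.6, 142 and 59.7 CPM, and acinar markers, 4 to 12 of 12, to 25.7, 5.53, 227 and 97.3 CPM. All 3 sums were highest in TAK-981 1, as Vsir was, and their part in the Vsir and Cd274 differences was not tested. Without TAK-981 1 the Vsir log2 ratio was 0.81, and without TAK-981 2 it was 2.86.

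Macrophages had 55.2 and 22.9 CPM of Cd274 in vehicle mice against 48.6 and 89.0 in treated mice, and Cd80 had 152, 40.5, 30.9 and 75.4 CPM; both overlapped. Cd86 had 159, 112, 133 and 135 CPM, Vsir 162, 211, 178 and 176, and Lgals9 150, 110, 109 and 154. The groups did not overlap for 1 ligand that was higher (Cd47, 242 and 215 against 251 and 281 CPM) and 2 that were lower (Pvr, 39.9 and 43.2 against 28.7 and 35.8, and Cd276, 3.38 and 6.11 against 1.83 and 2.79), beside 23.4% and 22.3% of all genes. In the C1q cluster alone Cd274 was at 47.0 and 14.8 CPM in vehicle mice against 52.3 and 67.0 in treated mice. Different clusters held the class in the groups: the monocyte cluster had 723, 159, 38 and 80 cells. Acinar markers, 2 to 12 of 12 with UMIs, summed to 47.9, 28.3, 662 and 267 CPM in the class, and their part in these differences was not tested.

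Neutrophils had 451 and 188 CPM of Cd274 in vehicle mice against 139 and 481 in treated mice, and the vehicle 2 and TAK-981 1 values were the low ones. Cd80 had 359 and 209 against 190 and 111 CPM, and Vsir 255 and 248 against 190 and 170, both lower without overlap and without passing the test. Lgals9 was the ligand that was higher without overlap, at 95.9 and 81.7 against 114 and 99.6 CPM, and 20.8% of all genes were higher and 22.8% lower without overlap in this class. Only 44 and 103 cells stood behind the TAK-981 values. The Retnlg and Cxcr2 state, where Cd80 and Vsir were higher in vehicle mice, gave 118, 76, 0 and 1 cells. Neutrophil markers, 12 of 12 with UMIs, summed to 77317, 73772, 38400 and 38276 CPM in this class. Acinar markers, 2 to 12 of 12, summed to 164, 39.0, 4781 and 533 CPM, and epithelial markers, 6 to 8 of 10, to 188, 468, 1234 and 568 CPM. The part of these sums in the neutrophil differences was not tested. In dendritic cells Cd274 had 147 and 56.9 CPM in vehicle mice against 200 and 312 in treated mice (log2 1.11 ± 0.44, edgeR adjusted p = 0.279), and 23.1% of all genes were higher and 21.1% lower without overlap. Macrophage markers, 10 to 14 of 14 with UMIs, summed to 1130, 808, 4872 and 1199 CPM in that class, neutrophil markers, 6 to 11 of 12, to 623, 869, 522 and 2784 CPM, and acinar markers, 0 to 12 of 12, to 16.6, 0, 431 and 255 CPM. Different subclusters held the class in the groups: an unnamed one led by C1qa and S100a9 had 7, 0, 19 and 12 cells and cDC2 had 59, 3, 1 and 0, of 229, 30, 32 and 27. Their part in the Cd274 difference was not tested.

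In endothelial cells Nectin2 had 121 and 148 CPM in vehicle mice against 60.9 and 72.8 in treated mice (log2 -1.05 ± 0.40, edgeR adjusted p = 0.2396), and Cd276 had 131 and 96.2 against 36.1 and 64.7 (log2 -1.30 ± 0.46, edgeR adjusted p = 0.203). Lower values without overlap were found for 23.5% of all genes there. The libraries held 62, 89, 38 and 15 endothelial cells, and epithelial markers, 4 to 7 of 10 with UMIs and Epcam at 0 in each library, summed to 31.0, 214, 1951 and 153 CPM, highest in TAK-981 1, which also had the lowest Cd276. Macrophage markers, 7 to 14 of 14, summed to 225, 493, 1793 and 1300 CPM there, and acinar markers, 0 to 12 of 12, to 3.88, 0, 675 and 161 CPM. The part of these 3 sums in the endothelial differences was not tested. Without TAK-981 2 the Cd276 log2 ratio was -1.70, with an edgeR adjusted p of 0.0163. In fibroblasts 4 tested ligands (Cd80, Nectin2, Cd47 and Vsir) were higher and 1 (Cd276) lower without overlap, beside 20.4% and 20.6% of all genes. Cd80 there had 4 and 4 UMIs in vehicle mice against 11 and 20 in treated mice, and Vsir 3 and 8 against 17 and 16. These 2 ligands may therefore have been tested only through the treated libraries. Nectin2 there had 44.2 and 63.2 against 67.6 and 71.6 CPM. Macrophage markers in fibroblasts, 10 to 14 of 14 with UMIs, summed to 306, 482, 2117 and 779 CPM, neutrophil markers, 11 to 12 of 12, to 99.6, 105, 224 and 457, and acinar markers, 2 to 12 of 12, to 23.8, 6.25, 297 and 176, and their part in the fibroblast differences was not tested. In endothelial cells 1 ligand (Cd47) was higher, beside 22.6% of all genes. In the sum of all cells Nectin2 and Cd47 were higher and Cd276 lower without overlap, beside 24.5% and 23.2% of all genes. Cd47 there had 222 and 240 against 373 and 384 CPM (log2 0.71 ± 0.21, edgeR adjusted p = 0.257). In T or NK cells Pdcd1lg2 overlapped at 37.3, 53.5, 14.5 and 53.4 CPM, 1 of 5 ligands (Cd47) was higher and 1 (Lgals9) lower without overlap, and 23.3% and 21.8% of all genes were so. Macrophage markers in T or NK cells, 7 to 13 of 14 with UMIs, summed to 478, 217, 768 and 668 CPM and acinar markers, 1 to 12 of 12, to 102, 11.4, 1311 and 492 CPM, and their part was not tested.

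**Figure D5:**
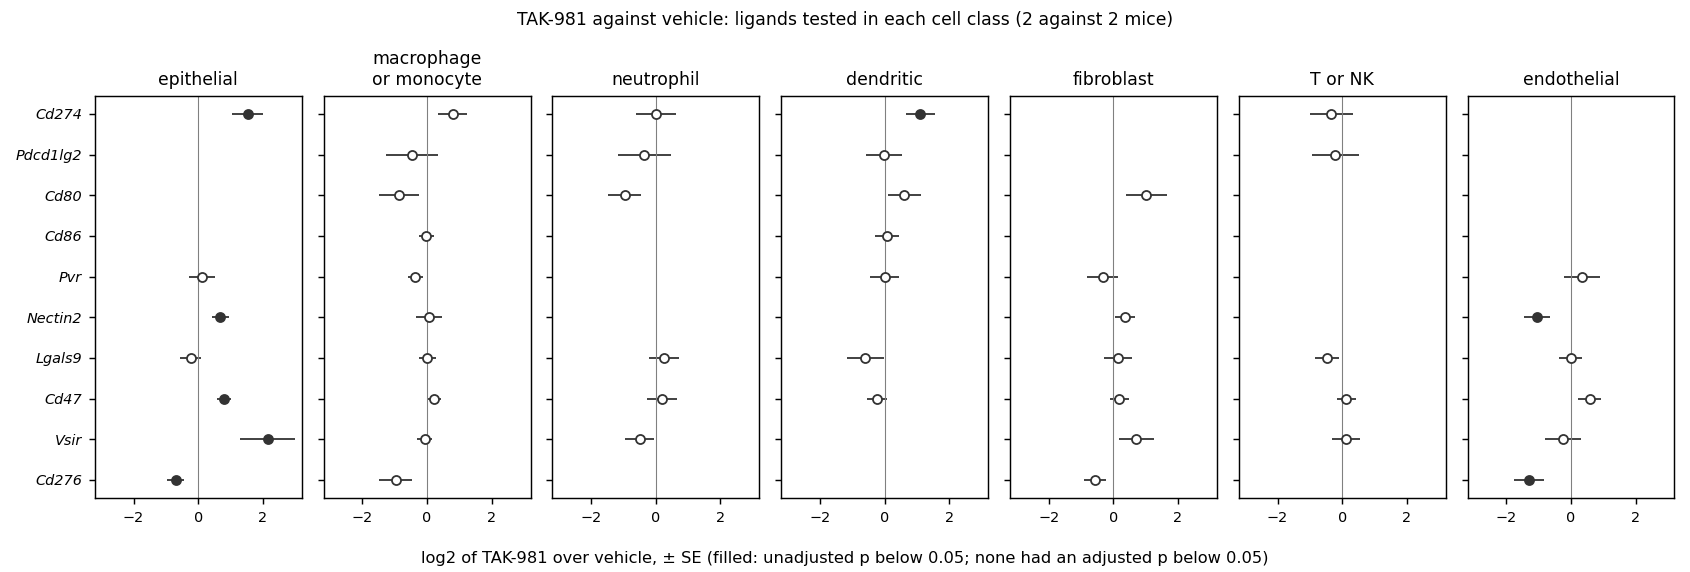
Log2 ratio of TAK-981 over vehicle with its SE for each ligand tested in each class, 2 mice against 2; filled points have an unadjusted p below 0.05. The filled points are Cd274, Nectin2, Cd47, Vsir and Cd276 in epithelial cells, Cd274 in dendritic cells, and Nectin2 and Cd276 in endothelial cells, and none passes after adjustment.

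Whether classes responded differently was tested as the difference of their log2 ratios. For macrophages against epithelial cells no ligand of 10 passed in edgeR (0.129% of all genes did), and 2 had an unadjusted p below 0.05 (10.9% of all genes did): Cd47 with -0.73 ± 0.26 (adjusted p = 0.404) and Vsir with -2.08 ± 0.79 (adjusted p = 0.420). For neutrophils against macrophages no ligand of 9 passed (0.362% of all genes did), and Cd274 had -1.08 ± 0.46 (adjusted p = 0.693) as the only one with an unadjusted p below 0.05 (5.77% of all genes had one). No DESeq2 fit of these differences was run. A difference between tumour cells and macrophages in the response of Cd47 was therefore not shown.

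Receptors of the ligands were read in the classes that carry them. T or NK cells had 256 and 495 CPM of Pdcd1, the gene of PD-1, in vehicle and 295 and 271 under TAK-981, with overlap. Ctla4 had 427, 482, 327 and 427 CPM, Cd28 256, 187, 127 and 212, and Cd226 96.0, 53.5, 113 and 80.1. Tigit, the inhibitory receptor of Pvr, was too low to be tested, at 5.33, 0, 8.69 and 3.82 CPM, and so was Pvrig at 5.33 to 13.4 CPM. Sirpa, the Cd47 receptor, had 469 and 372 CPM in macrophages in vehicle and 314 and 350 under TAK-981 (lower without overlap, edgeR adjusted p = 0.58). Havcr2, the galectin-9 receptor, was found in dendritic cells at 56.9 to 75.4 CPM and in macrophages at 19.2 to 40.3 CPM. Of the 14 receptor genes 1 to 8 could be tested in a class, and none passed in any class in edgeR; at an unadjusted p below 0.05 there were 3 in epithelial cells (Thbs1, Selplg and Trem2), beside the 21% of all genes given above, and 0 elsewhere. Macrophage markers in the epithelial class were at 167, 116, 1073 and 248 CPM, and their part in these 3 differences was not tested.

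Among 21 other ligands, H2-T23, which encodes Qa-1, the ligand of the NKG2A receptor, was the gene that passed. In fibroblasts it had 57.3 and 61.2 CPM in vehicle mice against 187 and 241 in treated mice (log2 1.85 ± 0.31, edgeR adjusted p = 0.0379), and in endothelial cells 42.0 and 34.4 against 187 and 137 CPM (log2 2.12 ± 0.43, edgeR adjusted p = 0.0357). Macrophage markers were also higher in the treated libraries of both classes, at 306, 482, 2117 and 779 CPM in fibroblasts and 225, 493, 1793 and 1300 CPM in endothelial cells, and their part in the H2-T23 differences was not tested. No gene of this list passed in the other classes, although the treated libraries lay above the vehicle ones for H2-T23 in all 7 classes. By class 20.4 to 27% of all genes were higher in this way, and the classes share the same mice. In neutrophils, for example, H2-T23 had 67.3, 18.1, 316 and 182 CPM (log2 2.43, edgeR adjusted p = 0.153). Among 20 regulators of Cd274, Ifngr2, a subunit of the interferon gamma receptor, passed in epithelial cells, with 34.0 and 27.5 CPM in vehicle mice against 78.6 and 68.1 in treated mice (log2 1.25 ± 0.24, edgeR adjusted p = 0.0491). The other 19 did not pass in any class. The median log2 ratio of the 20 regulators in epithelial cells was 0.06, beside 0.01 over all genes tested.

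Genes with the most similar pattern were sought over the 28 library-by-class sums, as Pearson correlations of log2(CPM + 1), which share libraries and depth and are descriptions only. Cd274 lay closest to Lilr4b (r = 0.95), Srgn and Treml2, Cd80 to Plek (0.94), Cd86 to Pld4 (0.93), H2-DMa and Ctss, Vsir to Rap1b (0.91), Nectin2 to Mfge8 (0.88), Lgals9 to Dusp6 (0.87), Pvr to Prkar2a (0.86), Pdcd1lg2 to Stat4 (0.93) and Cd276 to Tns2 (0.96). Cd47 had the weakest best match, Ly75 at 0.75. Within the ligands, Cd274 and Cd80 had r = 0.85, Cd274 and Pdcd1lg2 0.77, Nectin2 and Cd276 0.76 and Cd80 and Cd86 0.76.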

How the data were processed

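Per the labels, 10x 3′ v3.1 chemistry was used for all 4 libraries. The authors deposited raw UMI counts for each gene in each barcode, from Cell Ranger 6.1.2 on mm10 per the submitters' processing notes. The ligands and the gene lists were chosen with earlier results of these data known. Barcodes under 500 UMIs or 250 genes, or above 20% mitochondrial UMIs, were left out, and the barcodes with the highest Scrublet scores were removed at 0.8% per 1000 cells. Clustering used scanpy 1.11.5 with 2000 variable genes without the ligands, 30 components, 15 neighbours and Leiden resolution 1. Clusters were named by marker lists with at least 3 markers in 10% of cells. Counts were summed per library and class (total UMIs 24411656, 29041348, 26376608 and 63898758 per library) and tested with edgeR 4.0.16 in R 4.3.3, with TMM, its filter on low counts and Benjamini-Hochberg adjustment over all genes of a class at 0.05. DESeq2 1.42.0, other filters, scalings, cell limits and leave-one-out fits were alternatives. The test was checked on simulated counts. The rule for named genes took all 10 ligands, their receptors and the listed genes that passed. Of the receptors, values of Cd96, and of Havcr2 in T or NK cells, are not given above. Of the 10 ligands, 6 overlap a gene on the opposite strand in GENCODE vM21, and strand use in counting is not given in the sources used here, so reads of such pairs cannot be told apart. Replicate libraries of a group differed by far more than sampling noise.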

Additional observations from a re-analysis of the deposited data

How the results depend on the processing

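Of 122 alternative fits of the 8 comparisons, 116 called no ligand, as in the edgeR fits reported. The alternative cell limits and clusterings did not keep the same cells in a class. Vehicle 2 had 1431 epithelial cells in the fits reported and 578 at up to 10% mitochondrial UMIs. It had 1219 at 1000 UMIs or more, 837 at Leiden resolution 2 and 86 without doublet removal. Neutrophils of TAK-981 2 were 103, 41, 110, 58 and 61 in the same order. In epithelial cells DESeq2 called 1 (Cd47) and no filter on low counts 3 (Cd86, Cd47 and Vsir). No filter also called 1 in macrophages (Cd80, lower) and 1 in fibroblasts (Cd274, higher). Without doublet removal 2 were called in neutrophils (Cd80 and Vsir, lower). Leaving out 1 library gave 0 to 1 ligand in endothelial cells (1, Cd276, without TAK-981 replicate 2) and 0 in every other class. For the difference between macrophages and epithelial cells leaving out 1 library gave 0 to 3, with Cd80, Cd86 and Vsir called without TAK-981 replicate 2. The causes were not tested. DESeq2 called 1205 genes in epithelial cells where edgeR called 332, and 257 in macrophages and 759 in all cells where edgeR called 0. All 157 alternative values of the 12 results with an unadjusted p below 0.05 (9 ligand and class pairs, the sum of all cells among the classes, and 3 differences between classes) kept their direction. These results were picked by their p in the same libraries. The groups did not overlap in the 9 pairs, so leaving out 1 library could hardly reverse them. Their kept direction is therefore no separate support. Over all 58 tested pairs, 77 of 838 values changed sign. The highest class of all 10 ligands was the same with unscaled CPM and with Leiden resolution 2, and by share of cells thinned to 1500 UMIs in place of 500 it was the same for 6 of 10. The replicate block (replicate number as a term) called 0 ligands in all classes. Same-numbered libraries showed correlations of deviations between -0.151 and 0.0678 by class, and only the number joins them. With 2 mice per group p-values rest on little spread, and any batch that follows the groups cannot be told apart. The setting that counted unnamed tumour-like clusters as epithelial, and those that left out a macrophage cluster or kept only the C1q cluster, were chosen after seeing the data.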
